A study of Bos taurus with 8 samples.

Results

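The transcripts of 9 complement genes were followed in cultured bovine retinal glia that had been exposed to a protein of human immunodeficiency virus (HIV-1). The genes were C1R, C1S, C1QA, C1QB, C1QC, C3, C4A, CFI and CD59, 9 of 32429 gene names on the array. Every probe that carries one of these names was taken, 32 of 51282 probes. The labels give the cells as primary Müller glia from bovine eye, grown for 18 to 21 days. The TAT group (3 arrays) received TAT, the viral transactivator, at 100 ng/ml for 24 h. The Gp120 group (3 arrays) received gp120, the viral envelope glycoprotein, at 60 ng/ml for 24 h. The Control group (2 arrays) is labelled as control, with no further word on what it received. No allele or genetic change is given for any group. Replicates carry the letters A, B and C in the TAT and Gp120 groups, and A and B in the Control group. The treatment text is the same for all samples and names both proteins together, so that the groups here rest on the sample titles. The labels do not say whether the letters are separate cultures or animals, so that a p-value here reflects the spread of these arrays alone, and that spread may be technical.

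Complement is a cascade of plasma and tissue proteins that tags cells and debris for removal. In its classical branch, C1q binds a target and activates the attached proteases C1r and C1s, which cleave C4 and C2, and the resulting convertase cleaves C3. Factor I, encoded by CFI, inactivates the deposited fragments of C3 and C4, and CD59 blocks the assembly of the membrane attack complex on the cell's own surface. In the mouse retina, C1q transcripts are known mainly from microglia, whereas Müller glia are known to express C1S, C3 and C4.

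Each probe is an oligonucleotide of 60 bases, and 6 probes that lie in coding sequence are shown here because they identify which stretch of each transcript was read. They come from the scanner files, are written 5′ to 3′ in lower case, and no stretch is singled out by capitals. Positions are those that the scanner files give, on build HGSC Btau_3.1, and for the C1S probe the start in the transcript is given.
C1R, chr5:10364981-10365040, plus strand: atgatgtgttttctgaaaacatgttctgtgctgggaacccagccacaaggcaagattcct
C1S, chromosome 5, minus strand, from base 1765 of the transcript: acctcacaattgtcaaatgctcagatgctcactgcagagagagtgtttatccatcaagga
C1QA, chr2:134673069-134673128, minus strand: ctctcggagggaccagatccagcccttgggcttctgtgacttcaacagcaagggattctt
C3, chr7:16354080-16354139, plus strand: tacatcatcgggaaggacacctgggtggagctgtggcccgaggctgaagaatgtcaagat
C4A, chr23:27164310-27164369, minus strand: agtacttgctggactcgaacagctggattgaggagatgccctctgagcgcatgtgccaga
CD59, chr15:64056107-64056166, minus strand: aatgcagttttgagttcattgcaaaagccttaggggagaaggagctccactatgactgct
The probes of C1R and C1S lie on chromosome 5 between bases 10355511 and 10385662, and those of the 3 C1q chains on chromosome 2 between bases 134649306 and 134673128. The CFI probes lie on chromosome 6, between bases 17041640 and 17066654. C4 genes occur as near-identical copies in several mammals, so that signal at C4A probes may come from more than 1 copy.

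Levels are log2 of the processed signal relative to the 75th percentile of the same array, so that a level of 0 is a bright probe and 1 unit is a 2-fold step. Levels are compared between arrays and never between probes. A probe was kept when all arrays of 1 or more groups had it well above background, which 27 of the 32 complement probes did, and 24 of them stood above background on all 8 arrays. The 5 probes left out were 1 of C1R, 2 of C4A and 2 of CFI. For each gene the kept probe with the highest mean stands for the gene, and the others are given beside it.

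Between 55.46% and 64.62% of the probes of an array stood well above background, and saturated spots numbered 0. All 8 arrays lay on 1 slide. TAT A, Gp120 A and both controls were in row 1, and TAT B, TAT C, Gp120 B and Gp120 C in row 2. The scan also differed, with a detector voltage of 471 for the last 2 of these against 431 for the remaining 6 arrays. Of 20 Müller glia markers, 13 were kept, with GLUL at 5.60 to 6.63 and VIM at 6.92 to 7.61. RLBP1, GFAP, SOX2 and KCNJ10, which are also used to define these cells, did not pass the filter. Microglia and macrophage markers were present on every array, with 19 of 20 kept, and 11 of 12 fibroblast and stromal markers were kept. The extraction text calls the cells astrocytes. The array cannot say which cells a transcript came from, and fewer cells of a type and less RNA per cell cannot be told apart.

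C1R and C1S, the proteases of the C1 complex, differed more among the TAT arrays than between the controls. C1R stood at 2.27, -0.08 and 1.85 on TAT A, B and C, at 0.87, 0.38 and 1.40 on Gp120 A, B and C, and at -0.09 and 0.08 on Control A and B. TAT A, TAT C and Gp120 C were high, whereas TAT B lay within the control range, so that TAT and Control overlapped and Gp120 and Control did not. C1S stood at 4.05, 2.22 and 3.80 on TAT A, B and C, at 2.6, 2.72 and 3.79 on Gp120 A, B and C, and at 2.12 and 2.29 on Control A and B. The same 3 arrays were high for C1S, and TAT B again lay between the controls.

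The mean of C1R was 1.35 ± 1.26 with TAT (SD, n = 3) and 0.00 ± 0.12 in controls (SD, n = 2), a log2 difference of 1.35 (95% interval -0.16 to 2.86, limma adjusted p = 1). C1S differed by 1.15 (95% interval -0.19 to 2.49, limma adjusted p = 1). With gp120 the differences from control were 0.89 (-0.62 to 2.40) for C1R and 0.83 (-0.51 to 2.17) for C1S, both with a limma adjusted p of 0.964. None of these passed the threshold of 0.05, and the intervals span both no difference and a several-fold one. The other kept probes gave 1.46 for C1R and 1.22 and 1.43 for C1S with TAT, and 1.39 for C1R and 1.07 and 1.76 for C1S with gp120. All 3 C1S probes and both C1R probes were higher on every Gp120 array than on either control, as were 7.92% of all probes.

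Within pairs of the same letter, TAT minus control was 2.36 in letter A and -0.17 in letter B for C1R, and 1.93 and -0.07 for C1S. Gp120 minus control was 0.96 in letter A and 0.30 in letter B for C1R, and 0.47 and 0.44 for C1S. The TAT difference thus rested on TAT A and on TAT C, which has no control of its letter. Within row 1 of the slide, which holds TAT A and both controls, TAT minus control was 2.28 for C1R and 1.85 for C1S. Within the scan that holds the controls, Gp120 A alone gave 0.87 for C1R and 0.39 for C1S. With TAT A left out, TAT minus control was 0.89 for C1R and 0.81 for C1S.

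**Figure D1:**
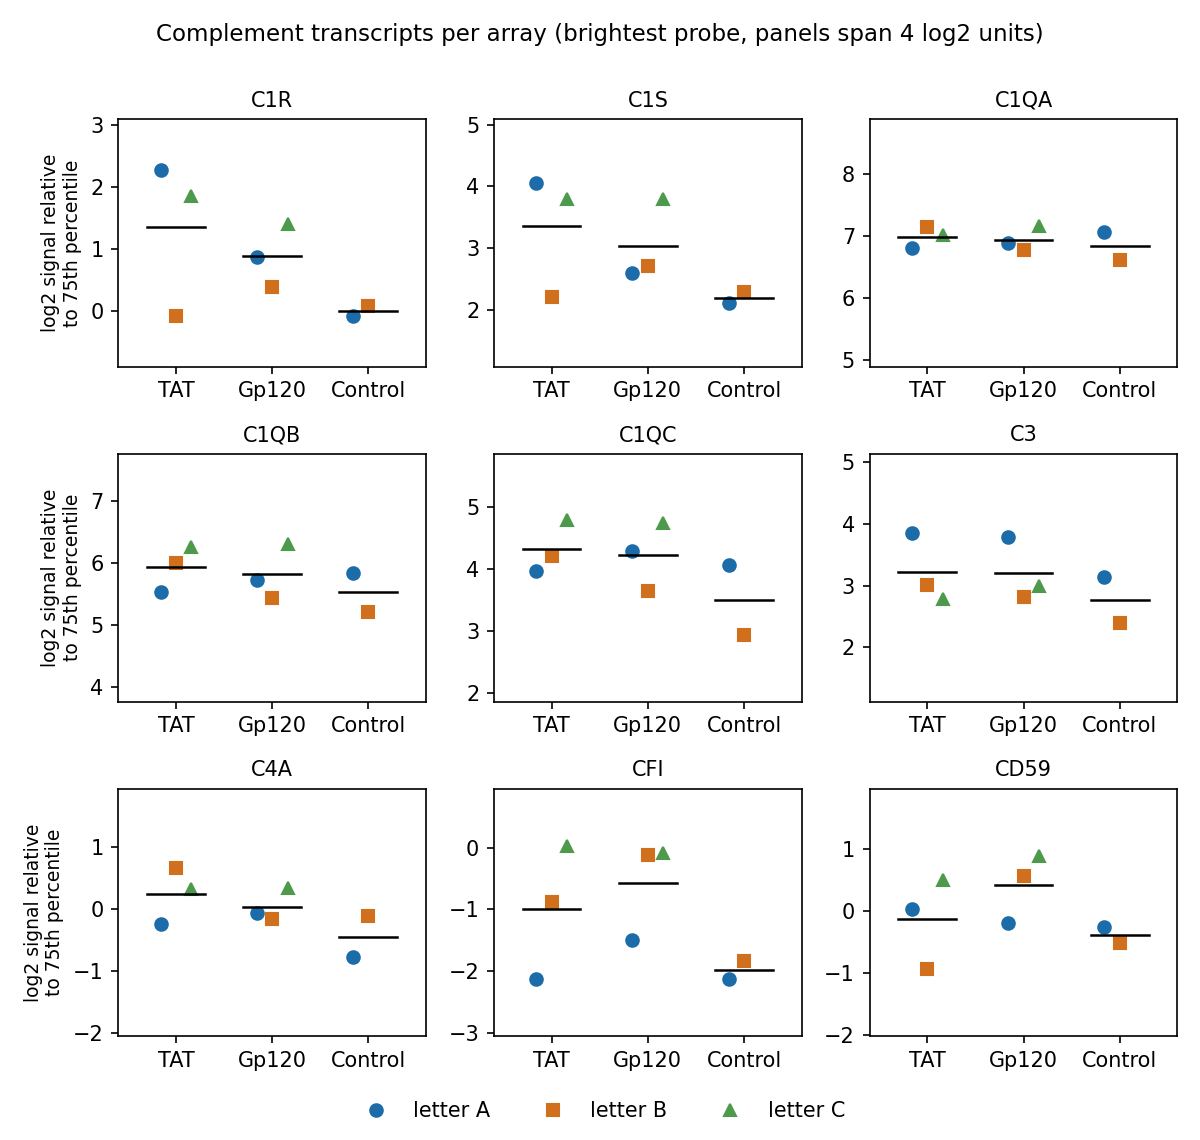
Level of the brightest probe of each complement gene on each array, as log2 signal relative to the array's 75th percentile, with TAT, Gp120 and Control from left to right. Symbols mark the letters A, B and C, bars the group means, and every panel spans 4 log2 units. The C1QA probe shown (6.61 to 7.16) varies less than the C1R probe shown (-0.09 to 2.27). The second C1QA probe, not shown, ranged more widely, from 4.13 on TAT A to 5.85 on Gp120 C.

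The mean of the fibroblast and stromal markers was high on some of the same arrays as C1R and C1S. All 11 kept markers were higher with TAT than in controls in mean, and none of them passed the test. Their median log2 difference was 0.82, against -0.02 over all 31153 probes. With gp120, 9 were higher and 2 lower than in controls (median 0.16), and none passed. Their mean level was 2.79, 1.64 and 1.94 on TAT A, B and C, 1.65, 1.52 and 1.53 on Gp120 A, B and C, and 1.40 and 1.27 on Control A and B. TAT A was the highest array for both, while Gp120 C was high for C1R and C1S (mean of the pair 2.59) and not for the marker list. The widest gaps between TAT A and TAT B were those of FBLN1 (-0.49 and -4.98), LUM (0.76 and -2.27) and FAP (1.93 and -0.93). FBLN1 was above background on 6 arrays. PRRX1, THY1 and DPT were lower on TAT A than on TAT B, and the other kept markers were higher. PDGFRA, a defining receptor of stromal cells, did not pass the filter on any of its 6 probes. The part of these cells in the C1R and C1S levels was not tested.

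The 5 named genes whose level most resembled the mean of C1R and C1S over the 8 arrays were STEAP2 (r = 0.942), P3H1 (0.941), TP53I11 (0.938), TMEM161A (0.935) and DCN (0.928). P3H1 hydroxylates collagen prolines, and DCN encodes decorin, a proteoglycan that binds collagen. Whether the 5 genes share a function was not tested. DCN stood at 5.99, 4.59 and 5.68 on TAT A, B and C, at 4.78, 4.23 and 5.46 on Gp120 A, B and C, and at 4.60 and 4.59 on Control A and B. TAT A, TAT C and Gp120 C were its 3 highest arrays, as for C1R. C1R and C1S correlated with each other at r = 0.96. These values are descriptions over 8 arrays that share a slide and 3 letters. The 5 genes, like those given below for C1q, were picked as the highest r in a search over 11815 genes, less members and LOC symbols. A search of that size over so few arrays can return high r values by selection alone, and no p-value was computed.

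The chains of C1q, the recognition part of C1, were bright on every array, and none of them passed the test against control. C1QA stood at 6.81, 7.15 and 7.01 on TAT A, B and C, at 6.88, 6.77 and 7.16 on Gp120 A, B and C, and at 7.07 and 6.61 on Control A and B. The 3 groups overlapped. C1QB stood at 5.53, 6.0 and 6.25 on TAT A, B and C, at 5.72, 5.43 and 6.31 on Gp120 A, B and C, and at 5.84 and 5.21 on Control A and B. C1QC stood at 3.97, 4.21 and 4.79 on TAT A, B and C, at 4.30, 3.64 and 4.74 on Gp120 A, B and C, and at 4.06 and 2.93 on Control A and B. Both followed one order among the extremes, with the letter C arrays highest and Control B lowest.

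TAT minus control was 0.15 for C1QA (95% interval -0.42 to 0.72), 0.40 for C1QB (-0.42 to 1.23) and 0.82 for C1QC (-0.23 to 1.87), each with a limma adjusted p of 1. Gp120 minus control was 0.09 for C1QA, 0.29 for C1QB and 0.73 for C1QC, with limma adjusted p-values of 0.964 to 0.977. On these brightest probes, TAT minus control was -0.26, -0.31 and -0.09 for C1QA, C1QB and C1QC in letter A, and 0.53, 0.79 and 1.28 in letter B, so that the pairs differed in sign. For C1QA the fitted difference also turned within row 1 with TAT (-0.03) and with row as a block with gp120 (-0.03). For C1QB, TAT minus control was 0.01 within row 1. The second C1QA probe gave 0.53 with TAT (95% interval -0.61 to 1.68) and 0.70 with gp120. The other C1QB probes share 57 of their 60 bases and gave 0.24 and 0.45 with TAT. The one with 0.45, from base 691, was higher with TAT in both letters (0.37 in A and 0.57 in B).

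Markers of microglia and macrophages did not lean one way with either protein. Of 19 kept microglia and macrophage markers, 18 stood above background on all arrays, and 8 were higher and 11 lower with TAT than in controls, with a median of -0.05. With gp120 7 were higher, 11 lower and 1 at 0.00 to 2 decimals, with a median of -0.07. The mean level of the list ranged from 3.51 to 3.59 with TAT, from 3.22 to 3.94 with gp120 and from 3.31 to 3.77 in controls, so that the groups overlapped. P2RY12, a receptor of resting microglia, stood above background on all 8 arrays, and CX3CR1, the fractalkine receptor, on 7. The part of these cells in the C1q levels was not tested.

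Most like the mean of the 3 C1q chains were MRO (r = 0.974), KCNIP2 (0.940), RTN1 (0.938), CDKAL1 (0.935) and PDK4 (0.933). PDK4, a kinase that switches off pyruvate dehydrogenase, stood at 0.35, 1.38 and 1.42 on TAT A, B and C, at 0.86, -0.43 and 1.74 on Gp120 A, B and C, and at 0.72 and -0.21 on Control A and B. Its letter C arrays were the highest, as for C1QB. Among themselves the chains correlated at r = 0.91 (C1QA and C1QB), 0.93 (C1QB and C1QC) and 0.81 (C1QA and C1QC). With C1R, the correlation was 0.02 for C1QA, 0.30 for C1QB and 0.49 for C1QC.

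**Figure D2:**
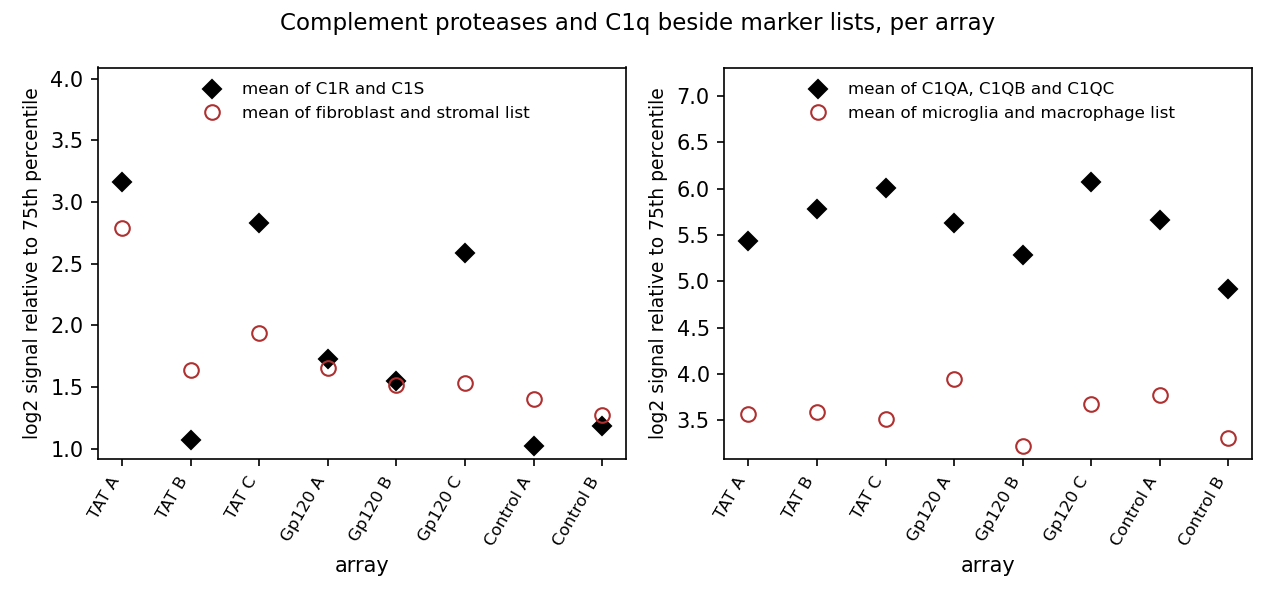
Left, mean level of C1R and C1S (diamonds) and of the fibroblast and stromal list (circles) on each array. Right, mean level of the C1q chains (diamonds) and of the microglia and macrophage list (circles); both axes are log2 signal relative to the 75th percentile, and TAT A is highest on the left (3.16 and 2.79) but not on the right.

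C4A encodes the component that C1s cleaves. It stood at -0.24, 0.66 and 0.32 on TAT A, B and C, at -0.06, -0.16 and 0.33 on Gp120 A, B and C, and at -0.78 and -0.12 on Control A and B. TAT A and Gp120 B were below Control B, and both treated groups overlapped the controls. TAT minus control was 0.70 (95% interval -0.09 to 1.49, limma adjusted p = 1) and Gp120 minus control was 0.49 (limma adjusted p = 0.964). The other kept C4A probes gave 0.40 to 0.52 with TAT and 0.44 and 0.69 with gp120, none of which passed the test. Within row 1, TAT minus control was 0.21 on the brightest probe.

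C3, the component on which all branches of the cascade meet, was read by 10 probes along the transcript. Its brightest probe stood at 3.85, 3.01 and 2.79 on TAT A, B and C, at 3.79, 2.81 and 3.0 on Gp120 A, B and C, and at 3.14 and 2.40 on Control A and B. The letter A array was the highest of each group, and the groups overlapped. TAT minus control was 0.44 (95% interval -0.56 to 1.45, limma adjusted p = 1) and Gp120 minus control was 0.43 (limma adjusted p = 0.964). Within row 1, where the treated arrays are of letter A, the differences were 1.08 with TAT and 1.01 with gp120.

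Over 9 of the 10 C3 probes, TAT minus control ranged from 0.23 to 0.97 and Gp120 minus control from 0.10 to 0.88. The value of 0.97 came from the probe from base 621, which was well above background on 7 arrays. The tenth, from base 1872, was well above background on 3 TAT arrays, 1 Gp120 array and 0 controls, so that its difference from control was not measured as a fold. Every C3 probe had higher means in both treated groups, and none passed the test. With the letter as a block, the brightest probe gave 0.60 with TAT (95% interval 0.13 to 1.07, limma adjusted p = 1) and 0.58 with gp120 (0.11 to 1.05, limma adjusted p = 0.648). Within letter pairs, the brightest probe gave 0.71 in letter A and 0.61 in letter B with TAT, and 0.65 and 0.40 with gp120. In both letters, 8 of 10 C3 probes were higher with TAT than in the control (20.4% of all probes), and 9 of 10 with gp120 (24.6%). Both counts include the probe from base 1872, and the 10 probes read the same transcript.

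CFI, the protease that inactivates C3 and C4 fragments, had the largest fitted difference from control among the members with gp120. Its brightest probe, which starts at base 1888 of the transcript, stood at -2.12, -0.88 and 0.03 on TAT A, B and C, at -1.49, -0.12 and -0.09 on Gp120 A, B and C, and at -2.13 and -1.84 on Control A and B. All 3 Gp120 arrays were above both controls, whereas TAT A was level with Control A. The probe from base 1997 stood at -3.04, -1.50 and -0.78 on TAT A, B and C, at -2.62, -0.63 and -1.10 on Gp120 A, B and C, and at -3.87 and -2.73 on Control A and B. Here too all 3 Gp120 arrays lay above both controls, and TAT A lay between them.

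Gp120 minus control was 1.42 for the brightest CFI probe (95% interval -0.09 to 2.92) and 1.85 for the other (0.04 to 3.66), both with a limma adjusted p of 0.964. TAT minus control was 1.0 and 1.53 on these probes, both with a limma adjusted p of 1. Within letters, the probe from base 1997 was higher than its control by 0.84 in letter A and 1.23 in letter B with TAT, and by 1.25 and 2.10 with gp120. Within the scan that holds the controls, where Gp120 A is the one Gp120 array, it gave 0.68. On the brightest probe TAT minus control was -0.13 within row 1 and -0.03 with row as a block. With the letter as a block, the difference on the probe from base 1997 was 1.51 with gp120 (limma adjusted p = 0.648) and 1.19 with TAT (limma adjusted p = 1), and that on the brightest probe with gp120 was 1.04 (95% interval 0.25 to 1.84, limma adjusted p = 0.648).

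CD59, the inhibitor of the membrane attack complex, was read by 1 probe. It stood at 0.03, -0.93 and 0.50 on TAT A, B and C, at -0.19, 0.56 and 0.88 on Gp120 A, B and C, and at -0.26 and -0.51 on Control A and B. TAT B was the lowest of all arrays, and each Gp120 array was above both controls. TAT minus control was 0.25 (95% interval -0.83 to 1.33, limma adjusted p = 1) and Gp120 minus control was 0.80 (-0.27 to 1.88, limma adjusted p = 0.964). With the letter as a block, TAT minus control was -0.02. Within the scan that holds the controls, Gp120 A gave 0.20.

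**Figure D3:**
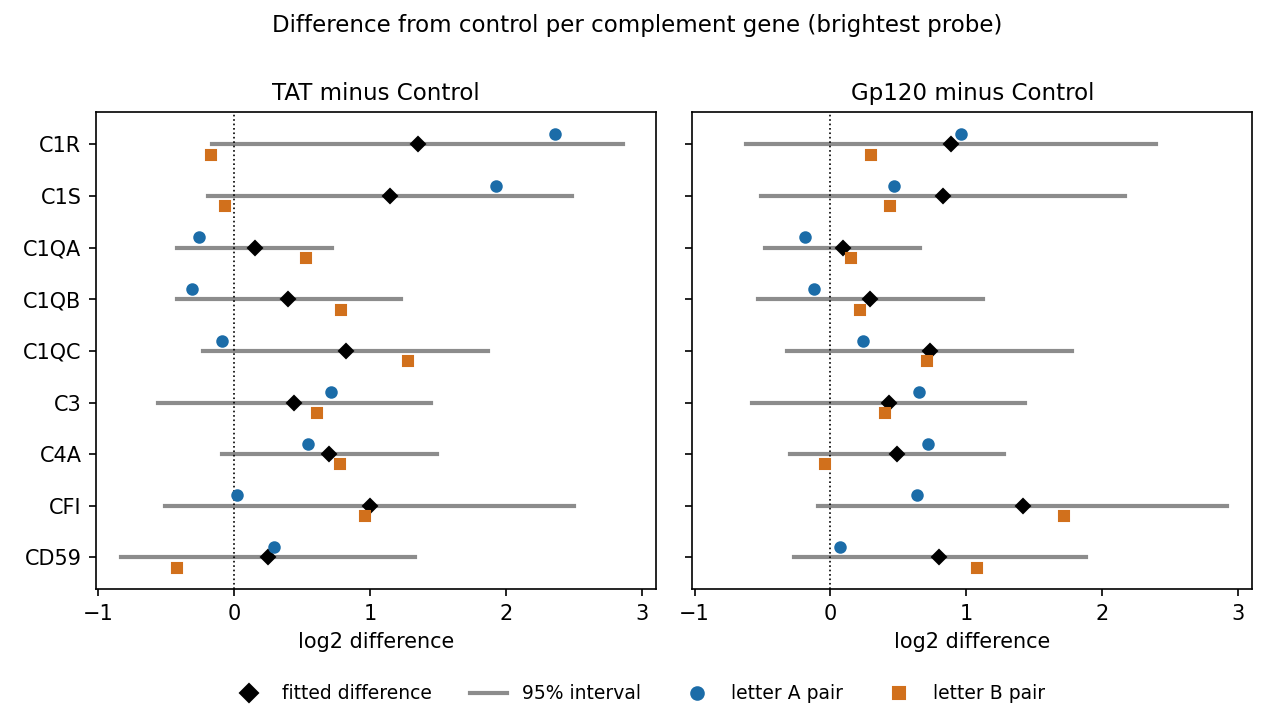
Fitted log2 difference from control of each complement gene (diamonds) with its 95% interval (lines), from the fit with group alone, with TAT on the left and Gp120 on the right, and the differences of the letter A and letter B pairs as circles and squares. All 9 diamonds lie above 0 in both panels, every interval includes 0, and the TAT pairs of C1R lie at 2.36 and -0.17.

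Set against all probes, the members' means leaned one way without any of them passing the test. With TAT, 0 of 27 kept member probes passed an adjusted p of 0.05, as did 0% of all 31153 probes, and 1 of 27 had an unadjusted limma p below 0.05, against 1.33% of all probes. With gp120, 0 of 27 passed, as did 0% of all probes, and 3 of 27 had an unadjusted limma p below 0.05, against 4.21%. With the letter as a block 0 of 27 passed an adjusted p of 0.05 in either comparison, while 6 of 27 had an unadjusted limma p below 0.05 with TAT (5 of C3 and 1 of CFI), against 4.14% of all probes, and 10 of 27 with gp120 (8 of C3 and 2 of CFI), against 7.44%. The mean was higher with TAT on 27 of 27 member probes (median difference 0.53), against 46.6% of all probes (median -0.02). With gp120 it was higher on 26 of 27 (median 0.70), against 50.2% of all probes (median 0.00). Probes of one gene read one transcript, and both comparisons share the 2 control arrays, so that these counts are not independent of each other. The counts include the C3 probe from base 1872, which passed the filter through the TAT group alone. It was among the C3 probes with an unadjusted limma p below 0.05 with the letter as a block, for both proteins. The members were also chosen with earlier results of these data known, so that these shares do not test the lean.

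Of the 27 probes, 5 were higher on all TAT arrays than on both controls, against 5.47% of all probes. They were 3 C3 probes and 1 each of C1QB and C4A. Of the C3 probes, 1 was not well above background on either control and passed the filter through the TAT group alone. No member probe was lower without overlap with TAT (8.66% of all probes) or with gp120 (7.67%). With gp120 13 of 27 were higher without overlap, against 7.92% of all probes. These comprised both C1R, all 3 C1S and both CFI probes, 2 each of C3 and C4A, and 1 each of C1QA and CD59. In both letters, 14 of 27 were higher with TAT than in the control (20.4% of all probes) and 21 of 27 with gp120 (24.6%).

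No member passed the test between TAT and Gp120. TAT minus Gp120 ranged from -0.55 for CD59 to 0.47 for C1R over the brightest probes, and from -0.56 to 0.47 over all 27, of which 0 passed (0% of all probes, limma) and 0 had an unadjusted p below 0.05 (3.98%). With the letter as a block, 0 of 27 passed and 0 had an unadjusted limma p below 0.05, against 10.3% of all probes. The TAT mean was higher on 16 of 27, against 45.5% of all probes. On every member probe the arrays of the 2 groups overlapped, against 3.33% of all probes higher and 4.6% lower without overlap. The 95% interval of C1R was -0.88 to 1.81, which includes differences of either sign.

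The letters gave the differences that did pass. With the group in the fit, 6 of 27 member probes differed between letters A and B at a limma adjusted p below 0.05, against 11.5% of all probes. Of these, 5 were C3 probes, higher in letter A (5.56% of all probes were higher), and 1 was the CFI probe from base 1997, lower in letter A (5.91% were lower). Over all 3 letters, 6 of 27 passed the F test, against 13.2% of all probes. Counted on the brightest probe of each member, 1 of 9 passed between letters A and B, and 2 of 9 passed the F test. The 5 C3 probes read the same transcript, so that the counts over 27 probes are not counts of independent members. The brightest C3 probe was higher in letter A than in letter B by 0.84 with TAT, 0.98 with gp120 and 0.74 in controls, a fitted difference of 0.85 ± 0.17 (SE, limma adjusted p = 0.027).

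The C3 probes from bases 4676, 3912, 2284 and 1872 also passed, with differences of 1.03, 1.40, 1.25 and 1.01, the one from base 1872 being above background on 4 arrays alone. Those from bases 4513, 3058 and 2439 differed by 0.95, 1.0 and 1.23 with adjusted p-values of 0.0582, 0.0561 and 0.0674. The probes nearest the start of the transcript, from bases 783 and 621, gave -0.17 and 0.29 and did not pass. Both were dim, at -5.20 to -3.56 and at -4.83 to -3.33, and each was well above background on 7 arrays. In all, 8 of 10 C3 probes were higher in letter A than in letter B in every group, the one from base 1872 among them. These probes read the same transcript, and the share of all probes with this order was not counted.

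On the CFI probe from base 1997, letter A minus letter B was -1.54 with TAT, -1.99 with gp120 and -1.14 in controls, a fitted difference of -1.56 ± 0.27 (SE, limma adjusted p = 0.0196). The brightest CFI probe gave -1.24, -1.37 and -0.30, fitted -0.97 (limma adjusted p = 0.0765). The brightest C3 probe was thus higher, and both kept CFI probes lower, in letter A within each group. For C1R, letter A minus letter B was 2.35 with TAT, 0.48 with gp120 and -0.18 in controls, with no call (fitted 0.89, limma adjusted p = 0.241).

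**Figure D4:**
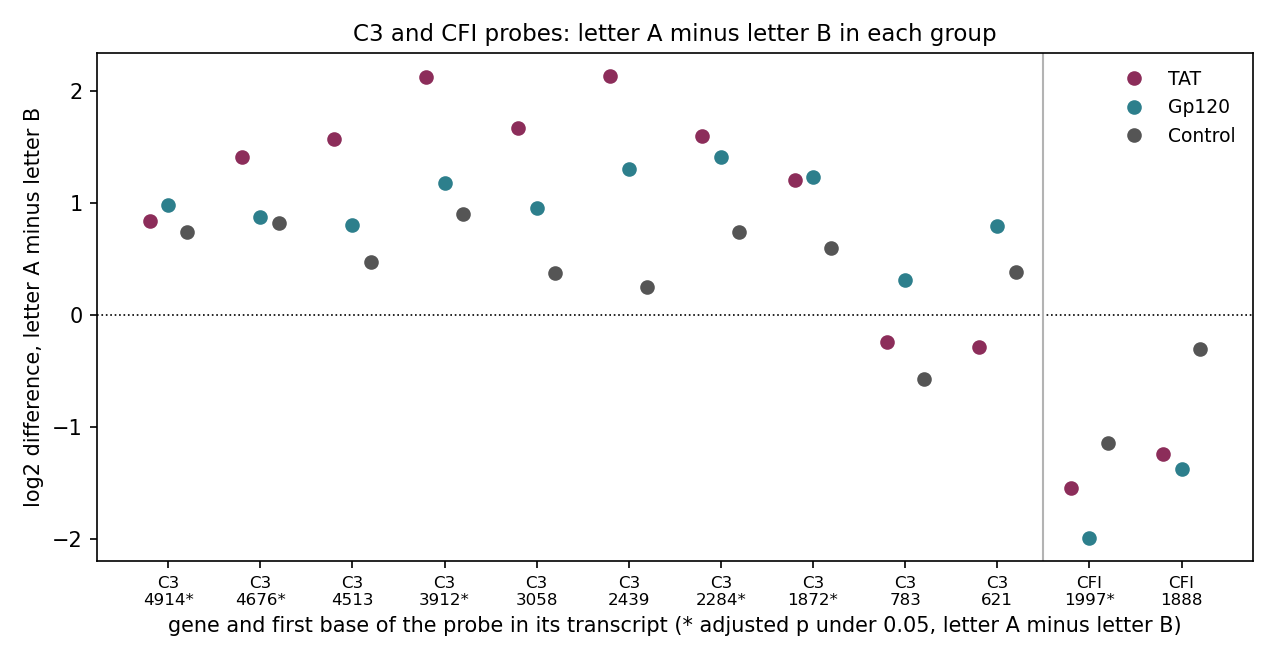
Letter A minus letter B, in log2 units, on each kept probe of C3 and CFI in the TAT, Gp120 and Control groups, ordered by the first base of the probe in its transcript, with an asterisk where the fitted difference had an adjusted p below 0.05. The 8 C3 probes from base 4914 to base 1872 lie above 0 in all 3 groups, and both CFI probes lie below 0 in all 3. The C3 probe from base 1872 was above background on 4 arrays alone.

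Letter and slide row were partly the same split, since the letter A arrays were all in row 1, with Control B the one letter B array there. With row as a block the comparison rests on the controls, and 0 of 10 C3 and 0 of 2 CFI probes passed, with 0.74 on the brightest C3 probe (limma adjusted p = 0.288) and -1.14 on the CFI probe from base 1997 (limma adjusted p = 0.285). Within the scan of 6 arrays the values were 0.79 (limma adjusted p = 0.163) and -1.34 (limma adjusted p = 0.0789). Leaving out any single one of the 8 arrays raised the adjusted p of the brightest C3 probe to between 0.0594 and 0.0970, with differences of 0.75 to 0.91. The CFI call was lost without TAT A or B, Gp120 A or B, or either control (limma adjusted p 0.0559 to 0.0716, differences of -1.25 to -1.76), and stayed without TAT C or Gp120 C. It was also lost with normexp background correction, where the difference was -0.53 (limma adjusted p = 0.0938). In the authors' deposited value table the C3 difference was 0.55 (limma adjusted p = 0.344) and the CFI difference was -0.22 (limma adjusted p = 0.685). The brightest CFI probe gave -0.30 with row as a block. The number of member probes called was 0 to 3 when 1 array was left out.

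Of 36 other complement genes listed, 33 were on the array and 21 had a kept probe. With TAT 14 were higher and 7 lower than in controls (median 0.32), with gp120 13 were higher and 8 lower (median 0.13), and 0 passed the limma test in either comparison. Among the 4 with the smallest p with TAT were SERPING1, the inhibitor of C1r and C1s (1.33), C5AR2, a receptor for C5a (-0.60), and CFB, the protease of the alternative branch (0.56), each with a limma adjusted p of 1. With gp120 the 4 were CD55, which speeds the decay of convertases (-0.77), C8G (0.40), CFB (0.61) and C5AR2 (-0.63), each with a limma adjusted p of 0.964. In the authors' deposited value table, which holds 1 value per gene name, TAT minus control had the opposite sign for SERPING1 (-0.46) and CFB (-0.63), as had Gp120 minus control for CFB (-0.06).

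Between letters, 8 of the 21 passed the F test, each gene taken on its brightest probe. Of all probes 13.2% passed, and with 1 probe a gene 2150 of 11815 genes did. Of the 8, 3 were higher and 2 lower in letter A than in letter B at a limma adjusted p below 0.05. C4BPA, a chain of the C4b-binding protein, was higher by 3.45 (limma adjusted p = 0.0038), though above background on 6 arrays. Its letter B arrays were dim, at -4.62 with TAT, -3.67 with gp120 and -5.51 in controls. With normexp the C4BPA difference was 1.33, so that its size depends on the background correction. SERPING1 stood at 0.87, -0.75 and 0.37 on TAT A, B and C, at -0.16, -1.69 and 0.57 on Gp120 A, B and C, and at -0.36 and -1.96 on Control A and B. It was lowest in letter B in each group, and letter A minus letter B was 1.58 (limma adjusted p = 0.018), against -0.04 in the authors' deposited value table. CR2, a receptor for C3 fragments, was higher by 1.87 (limma adjusted p = 0.0259), above background on 7 arrays, and by 0.70 with normexp and 1.11 in the authors' deposited value table (limma adjusted p = 0.425). VSIG4, a C3b receptor of macrophages, was lower by 0.91 in letter A (fitted -0.91, limma adjusted p = 0.0214). FCN1, a ficolin of the lectin branch named after its values were seen, was the other one lower in letter A (-2.45, limma adjusted p = 0.021). Blocking on the slide row, none of these 5 passed (limma adjusted p 0.0784 to 0.376), and with scan as a block CR2 did not (limma adjusted p = 0.0529). Leaving out each of the 8 arrays in turn ended the call in 7 cases for VSIG4, 6 for CR2, 5 for SERPING1, 4 for FCN1 and 0 for C4BPA.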

How the data were processed

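RNA of each of the 8 samples was hybridised to 1 single-colour array. Per the file headers, the authors obtained the intensity values with Agilent Feature Extraction 11.5.1.1, which subtracts background array by array, and arrays were not scaled to each other. The authors also deposited a table of log2 values per gene name. Its processing is not stated in the sources used here, and it served as an alternative. Probe positions are on HGSC Btau_3.1 per the file headers.

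Control and outlier spots (4 to 37 per array) were left out, repeated spots were averaged, and log2 of the processed signal minus the array's 75th percentile was taken. Probes were kept where all arrays of 1 or more groups had them well above background (31198), and 31153 had no missing value. These were fitted in R 4.3.3 by limma 3.58.1 (functions lmFit and eBayes, two-sided, Benjamini-Hochberg over 31153 probes, threshold 0.05), with group alone, or with group and letter for the comparison of letters. The procedure was tested on simulated data with a smaller spread than these arrays have. The planted differences were larger than any that the main fit gave for the members, so that detection of differences of their size was not tested. Same-letter arrays deviated together, with r of 0.326 to 0.707 in 7 pairs, against -0.6 to 0.407 in 14 pairs of different letters. The 2 controls mirror each other by construction, and the letter A arrays also shared slide row 1. Control B had an r of 0.407 with TAT C, against 0.326 with TAT B. The letters were taken as pairing the samples in the fits with the letter as a block and in the same-letter differences, which carry no p-value. The main comparisons of groups, with their intervals and p-values, had group alone and did not use this pairing. The number of arrays limits precision.

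Named were all members, the 4 complement genes with the smallest p per comparison, and the 5 named genes most like C1R and C1S or C1q, leaving out members and LOC symbols. Of the named complement genes, 1 is not reported here. Members and lists were chosen with earlier results of these data known. Alternatives were the letter, slide row or scan as a block, values within row 1 or 1 scan, normexp with an offset of 50, quantile normalization, 2 other filters, 1 probe a gene, the deposited table and each array left out. Figures were drawn with matplotlib 3.10.9.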

Additional observations from a re-analysis of the deposited data

Results flagged for a closer look

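On the brightest probe of several members the difference from control had opposite signs in letters A and B. With TAT, the letter A difference less the letter B difference was 2.53 for C1R and 2.0 for C1S, which were higher with TAT in letter A alone. It was -0.79 for C1QA, -1.10 for C1QB and -1.37 for C1QC, which were higher with TAT in letter B alone. For CD59 it was 0.71, higher in letter A alone. With gp120 it was -0.34 for C1QA and -0.34 for C1QB, higher in letter B alone, and 0.76 for C4A, higher in letter A alone. Other kept probes differed: the C1QB probe from base 691 was higher with TAT in both letters (0.37 and 0.57), and with gp120 the second C1QA probe (0.37 and 0.11) and the other C4A probes (0.55 and 0.09, 1.10 and 0.08) were higher in both letters. Each of these rests on 1 array per group and letter, and the difference between letters was not tested.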

How the results depend on the processing

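The precision is limited by 2 control arrays, by letters with no stated source, and by slide row and scan, which partly follow group and letter. With TAT minus control, Gp120 minus control or TAT minus Gp120, none of the values recomputed passed the test; these were the brightest probe of each member, the CFI probe from base 1997 and, for the differences from control, the complement genes named. Of 245 values recomputed for TAT minus control 8 turned in sign, and of 264 for Gp120 minus control 5. Of 188 for TAT minus Gp120 28 turned, and of 251 for letter A minus letter B 13. In letter A minus letter B, 57 further values kept their sign but lost their call. SERPING1 in the deposited table turned in sign and also lost its call (limma adjusted p = 0.97). The cause was not tested.

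With the replicate letter as a block, the number of probes called stayed at 0 in all 3 treatment comparisons, C1R gave 1.1 with TAT, CD59 turned to -0.02 with TAT, and the block changed no other call. In that fit C1S gave 0.85 with TAT and 0.53 with gp120, and C4A 0.61 and 0.40. C1QA gave 0.09 with TAT and 0.03 with gp120, C1QB 0.20 and 0.09, and C1QC 0.58 and 0.48.

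The number of probes called with TAT was 4 in the deposited table and 0 to 2 with 1 array left out, with gp120 3 and 0 to 1, and between TAT and Gp120 15 in the deposited table. The 2 calls with TAT and the 1 with gp120 came without Control A. Between letters, where 4106 probes were called, it was 189 with row as a block, 1639 with scan as a block, 208 within 1 scan, 1953 with no filter, 2150 with 1 probe a gene, 1590 in the deposited table and 1043 to 2559 with 1 array left out. The counts between letters come from the F test. In letter A minus letter B, the 6 called member probes became 0 with row or scan as a block or within 1 scan. They became 1 with no filter, and 0 to 3 with 1 array left out. No comparison of letters was run within row 1.

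With TAT minus control, signs turned within row 1 for C1QA (-0.03) and CFI (-0.13), with row as a block for CFI (-0.03), in the deposited table for SERPING1 (-0.46) and CFB (-0.63), and with 1 array left out for C1QA (-0.08 to 0.38) and CD59 (-0.07 to 0.65). With Gp120 minus control they turned for C1QA with row as a block (-0.03), for CFB in the deposited table (-0.06), and with 1 array left out for C1QA (-0.14 to 0.32) and C1QB (-0.02 to 0.61).

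With TAT minus Gp120 they turned within row 1 for C1QA (-0.06), C1QB (-0.18), C1QC (-0.33), C4A (-0.18) and CD59 (0.22). With scan as a block, and equally within 1 scan, C3 gave -0.57, the CFI probes 0.51 and 0.85, and CD59 0.06. The deposited table gave -0.29 for C1R and -0.51 for C3. With 1 array left out C1S ranged from -0.03 to 0.89, C1QA from -0.03 to 0.17, C1QB from -0.08 to 0.36, C1QC from -0.20 to 0.35, C3 from -0.30 to 0.31, and the CFI probes from -0.93 to 0.15 and from -0.90 to 0.31.

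With letter A minus letter B they turned with row as a block for C1R (-0.18) and C1S (-0.16), with normexp for C1QA (-0.04), in the deposited table for C1R (-0.21), C1QA (-0.06) and SERPING1 (-0.04), and with 1 array left out for C1S (-0.07 to 0.85), C1QA (-0.11 to 0.28), C1QB (-0.09 to 0.43) and CD59 (-0.20 to 0.55).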
